A study of Drosophila melanogaster with 8 samples.

Results

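The centromere-proximal ends of chromosome arms 2L and X were examined for trimethylation of histone H3 at lysine 36 (H3K36me3) in Drosophila melanogaster embryos. An array probe belonged to these ends when its midpoint lay within 1000000 bp of the largest probe end on its arm, and distances below are counted from that centromere side. The rule took 5126 of the 475395 genomic probes, 2461 on 2L and 2665 on X, and 5125 of them had a value in all 4 samples. The rule uses position only and no measured value. The 2L interval ran from chr2L:21357097 to 22356962 and the X interval from chrX:21050123 to 22050065, in the positions printed in the array files, which name no genome build.

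H3K36me3 was profiled by ChIP-chip, in which immunoprecipitated (IP, Cy5) and input (Cy3) DNA are hybridised together, on 2 Agilent tiling designs that hold 2L and X on separate slides. There were 2 biological replicates of wild type and 2 of dkdm4a mutant embryos, thus 4 samples and 8 arrays. The mutant was the y1 w67c23 line with the SUPor-P element KG04636 inserted in Kdm4A (stock 13828), and the wild type was a line of the same background from which that P element had been excised. Both were whole embryos of 2 to 4 hr collected in population cages and treated with the antibody ab9050 against H3K36me3. Each sample is therefore a pool of many embryos and cell types. The paper describes lines that differ by the insertion and its excision, but their input DNA also differed at some probes, as given below. A level below is the log2 ratio of the processed IP to the processed input signal minus the median of that array, so 0 is the array's median probe and not an absence of the mark.

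H3K36me3 is laid down by the methyltransferase Set2, which travels with elongating RNA polymerase II, and therefore marks the bodies of transcribed genes. KDM4A, encoded by Kdm4A, is a demethylase that removes it and binds HP1a, the protein that reads methylated H3K9 in pericentric heterochromatin. The proximal ends of the arms are where gene-rich euchromatin gives way to repeat-rich heterochromatin with fewer, often intron-rich genes. Proximal 2L is known for the tandem array of histone genes, and proximal X for flamenco, a locus whose piRNAs silence transposons. The array files attach no gene name to a probe, so windows and blocks are given by position, and no gene was placed in either interval.

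Probes were sparser at both proximal ends than along the rest of the arms. There were 2461 probes per Mb in the 2L interval against 4040 over the rest of 2L, and 2665 against 3925 on X. Neighbouring probes were spaced almost as elsewhere, with a median of 234 bp against 219 bp on 2L and 230 bp against 222 bp on X, but long stretches held no probe. On 2L, 15 gaps of over 5 kb took up 231 kb, and the longest, of 115 kb, lay 824 to 939 kb from the centromere side. On X, 20 such gaps took up 263 kb, and the longest, of 69.8 kb, lay 482 to 552 kb from it. Hence the bins 800 to 900 kb on 2L and 500 to 600 kb on X held only 11 and 9 probes and are shown but not interpreted.

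Precision was limited by the number of arrays and by their signal. In the intervals, 83.5% to 92.7% of the IP spots of an array were well above background, the median IP intensity lay between 67.7 and 131.6, and no spot was saturated. Replicate 2 of both genotypes was dimmer than replicate 1, and the arrays of replicate 1 were scanned on 1 day and those of replicate 2 on another, so the replicate number also stands for the scan day. The input DNA of the lines differed by more than 0.5 on the log2 scale, in the same direction in both replicates, at 11 2L probes (0.447%) and 50 X probes (1.88%), against 2.46% and 0.956% of the probes over the rest of these arms.

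Averaged over the whole interval, wild type and mutant differed at proximal 2L by less than the replicates of either genotype. The wild type means were 0.63 and 0.86 and the mutant means 0.63 and 0.83 in replicates 1 and 2. The genotypes overlapped, and within each genotype replicate 2 was the higher. The means of the groups were 0.75 ± 0.17 in wild type and 0.73 ± 0.14 in mutant (SD, n = 2), and mutant minus wild type was 0.0055 in replicate 1 and -0.03 in replicate 2 (two-sided exact permutation p = 1, the smallest possible being 0.33). With a normexp background correction in place of the processed signals this mean difference turned to 0.19.

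Proximal X likewise showed no difference between the genotypes larger than the replicate spread. Its wild type means were 0.76 and 0.98 and its mutant means 0.76 and 0.97. Wild type averaged 0.87 ± 0.15 and mutant 0.86 ± 0.14 (SD, n = 2). Mutant minus wild type was -0.0015 in replicate 1 and -0.01 in replicate 2 (exact permutation p = 0.667, two-sided).

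The contrast with proximal 2R shows what the same arrays recorded at another centromere-proximal end. There, the 1103 probes with values averaged 1.25 and 1.54 in wild type and 1.50 and 1.92 in mutant. The mutant was higher by 0.25 and 0.38 within the replicates, but the genotypes overlapped (exact permutation p = 0.667). The contrasts between arms in this paragraph were not repeated under other normalizations. The change at proximal 2L fell below that at proximal 2R by 0.24 and 0.41 (exact permutation p = 0.33, the smallest possible over 4 samples). Against proximal 3R, the change at 2L differed by 0.05 and -0.0056, in opposite directions. The change at proximal X fell below that at proximal 3L by 0.03 in each replicate (exact permutation p = 0.33).

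Both intervals carried on average slightly more H3K36me3 than the rest of their arms. On 2L this small surplus hid larger differences of opposite sign, given below, part of which depended on the normalization. In wild type the 2L interval exceeded the rest of 2L by 0.04 and 0.10, and in mutant by 0.02 and 0.05 (exact sign-flip p = 0.13 over the 4 samples, two-sided, the smallest possible). For X the surplus was 0.04 and 0.06 in wild type and 0.02 and 0.04 in mutant (exact sign-flip p = 0.13). The surplus depended on the length taken as proximal: with 500 kb it was -0.04 in wild type on 2L and -0.13 on X, and with 1.5 Mb 0.42 on 2L and -0.26 on X, against 0.07 and 0.05 with 1 Mb. On 2L it was 0.27 with loess normalization within each array and 0.01 with normexp. The mutant surplus was the smaller in both replicates on both arms, by 0.02 and 0.05 on 2L and by 0.02 and 0.02 on X (exact permutation p = 0.667 for each). The medians tell the arms apart more clearly, being 0.13 to 0.23 in the 4 samples at proximal 2L against -0.08 to -0.07 over the rest of that arm, whereas at proximal X they were 0.03 to 0.08 against 0.01 to 0.03.

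The surplus was therefore divided by enriched block, a block being a run of at least 5 probes whose 5-probe moving average, taken over all 4 samples, was at least 1, with no gap above 1000 bp. Proximal 2L held 33 blocks and proximal X 25, against 27.3 and 32.0 per Mb over the rest of the arms. These blocks covered 14.5% of the 2L interval and 16.3% of the X interval, less than the 21.5% and 24.3% of the rest. Counted in probes the shares were close, 24.0% against 23.3% on 2L and 25.7% against 26.4% on X. Blocks as called were shorter at the proximal ends, with a median width of 2.67 kb on 2L and 4.38 kb on X against 5.52 and 5.61 kb elsewhere on these arms. A block also ends at a probe gap above 1000 bp, and the proximal ends were more sparsely probed. For example, chr2L:21630426-21631882 lay only 1.17 and 1.31 kb from its neighbouring blocks. The part of the block counts and widths that is due to probe gaps was not tested.

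Inside the blocks the 2 arms differed in direction from one another. Probes in proximal 2L blocks had wild type means of 2.95 and 3.48 and mutant means of 2.86 and 3.44, whereas those in blocks over the rest of 2L had 3.55 and 4.05 in wild type and 3.55 and 4.11 in mutant. The proximal blocks were thus lower by 0.60 and 0.57 in wild type and by 0.69 and 0.67 in mutant (exact sign-flip p = 0.13), but within-array loess normalization turned this wild type difference, -0.59 on average, to 0.31, and it was -0.30 with normexp, -0.32 with a 1.5 Mb interval and -0.37 in the deposited log2 values. On X, probes in proximal blocks had wild type means of 3.74 and 4.27 and mutant means of 3.70 and 4.20, above the rest of the arm by 0.19 and 0.23 in wild type and by 0.16 and 0.17 in mutant (exact sign-flip p = 0.13). This wild type difference on X, 0.21 on average, was -0.06 with a 500 kb interval, 0.03 with 1.5 Mb and 0.13 with loess.

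Outside the blocks, proximal 2L was raised and proximal X hardly so. On 2L the 1870 probes outside blocks averaged -0.11 and 0.04 in wild type and -0.07 and 0.0057 in mutant, while the rest of 2L outside blocks averaged -0.31 and -0.23 in wild type and -0.27 and -0.23 in mutant. All 4 samples had the proximal probes higher, by 0.20, 0.27, 0.20 and 0.23 in wild type 1 and 2 and mutant 1 and 2 (exact sign-flip p = 0.13, the smallest possible). The wild type difference on 2L, 0.24 on average, was 0.13 with normexp and 0.14 with loess. On X the same differences were 0.02, 0.05, 0.0015 and 0.03.

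**Figure D1:**
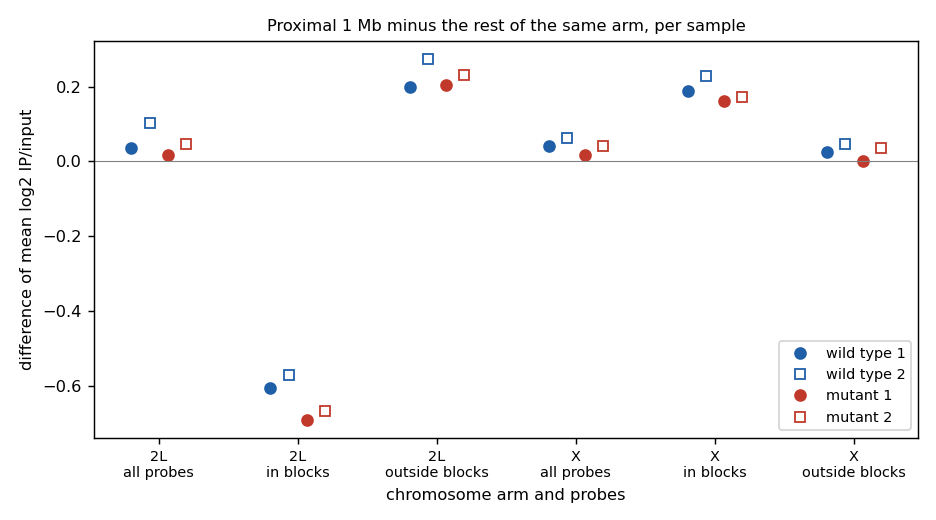
Mean log2 IP/input of the proximal 1 Mb minus that of the rest of the same arm (vertical axis, log2), for all probes, probes in enriched blocks and probes outside them on 2L and X (horizontal axis). Each point is 1 sample, blue for wild type and red for dkdm4a mutant, filled for replicate 1 and open for replicate 2. The 2L points lie near -0.6 to -0.7 in blocks and near 0.2 to 0.3 outside them, and the X points lie between 0.16 and 0.23 in blocks and below 0.05 outside them.

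The changes inside blocks were small on both arms. Relative to blocks on the rest of the arm, the mutant minus wild type difference of proximal blocks was -0.09 and -0.10 on 2L and -0.03 and -0.06 on X in replicates 1 and 2 (exact permutation p = 0.33 for each arm, the smallest possible). Outside blocks the same quantity was 0.0045 and -0.04 on 2L and -0.02 and -0.01 on X, with exact permutation p of 1 and 0.667.

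Followed from the centromere side, 2L began with a moderately enriched stretch, rose, fell to the array's median level or below and rose again. In the innermost 100 kb the wild type means were 0.71 and 0.98 and the mutant means 0.77 and 0.94 over 157 probes. From 100 to 200 kb the means were 1.42 and 1.75 in wild type and 1.52 and 2.02 in mutant, and from 200 to 300 kb 1.59 and 1.98 in wild type and 1.49 and 1.85 in mutant. Here the level was above the median 100 kb bin over the rest of 2L, which was 0.51 in wild type.

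A broad low stretch followed on 2L between 300 and 600 kb. Its 3 bins, of 325 to 396 probes each, had wild type means of -0.06 ± 0.09, -0.28 ± 0.07 and -0.09 ± 0.08 and mutant means of -0.07 ± 0.02, -0.27 ± 0.0076 and -0.11 ± 0.0015 (SD, n = 2). The longest part of it without any block ran for 183 kb, from chr2L:21825240 to 22008152, and held 673 probes with means of -0.32, -0.24, -0.27 and -0.29 in wild type 1 and 2 and mutant 1 and 2. Only 1.78% to 4.16% of those probes had a level above 1, so nearly all probes of the stretch were low in all 4 samples.

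From 600 to 800 kb 2L was enriched again. The bin 600 to 700 kb had wild type means of 1.24 and 1.54 and mutant means of 1.08 and 1.36. The bin 700 to 800 kb was the highest of the interval, at 2.07 and 2.48 in wild type and 2.09 and 2.51 in mutant, with 64.1% of its probes in blocks. The outermost 100 kb, which includes probe gaps, returned to -0.21 and 0.02 in wild type and -0.12 and 0.14 in mutant over 105 probes, whereas the 329 probes of the 100 kb just beyond the limit of the interval had 1.68 and 1.97 in wild type and 1.55 and 1.92 in mutant.

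On X the order was different, since the 300 kb next to the centromere side were low. Their wild type bin means were -0.08 ± 0.04, -0.37 ± 0.02 and -0.19 ± 0.09 and their mutant bin means -0.11 ± 0.02, -0.29 ± 0.03 and -0.17 ± 0.13 (SD, n = 2). A stretch of 282 kb without a block, from chrX:21747332 to 22028917, held 811 probes with means of -0.34, -0.26, -0.31 and -0.22 in wild type 1 and 2 and mutant 1 and 2. Only a single block lay inward of it, at chrX:22028918-22033300, about 19.0 kb from the centromere side, with levels of 3.41 and 3.78 in wild type and 3.29 and 3.49 in mutant.

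The richest X bin lay from 300 to 400 kb, with 2.55 and 2.98 in wild type and 2.49 and 2.92 in mutant and 72.8% of its 368 probes in blocks. Farther out, the bin 600 to 700 kb had 0.53 and 0.82 in wild type and 0.59 and 0.79 in mutant, and the bin 700 to 800 kb fell back to -0.34 and -0.22 in wild type and -0.31 and -0.21 in mutant. The bins 800 to 900 and 900 to 1000 kb were enriched, at 2.02 ± 0.24 and 1.28 ± 0.15 in wild type and 2.00 ± 0.20 and 1.24 ± 0.16 in mutant (SD, n = 2). In contrast to 2L, the 100 kb beyond the limit of the X interval were low, with -0.36 and -0.28 in wild type and -0.35 and -0.26 in mutant over 277 probes.

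**Figure D2:**
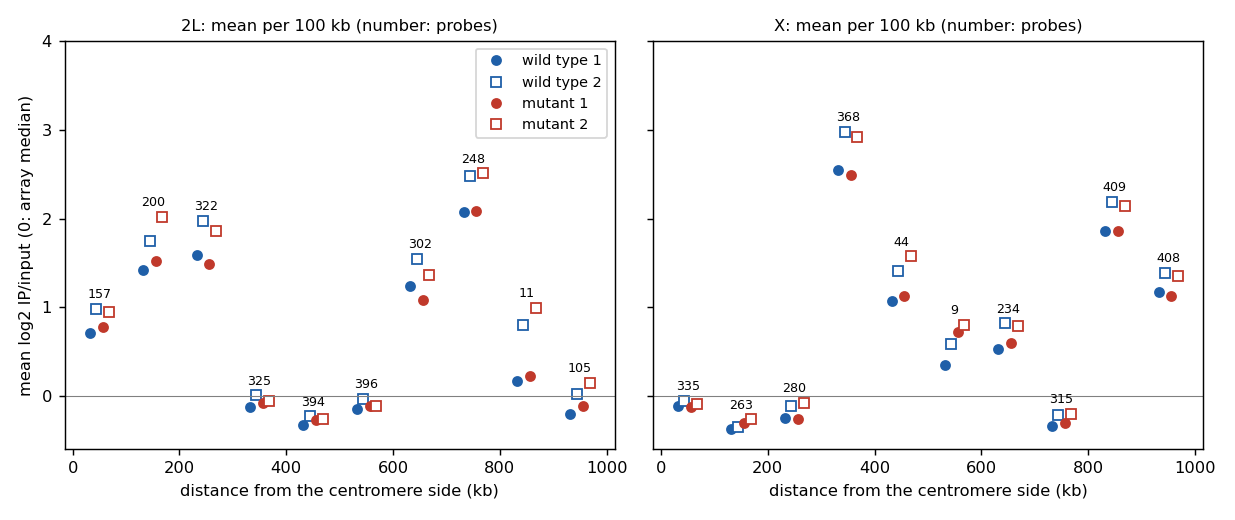
Mean log2 IP/input (vertical axis, 0 is the array median) in 100 kb bins by distance from the centromere side in kb (horizontal axis) for 2L and X. Points are the 4 samples, blue for wild type and red for mutant, filled for replicate 1 and open for replicate 2, with the number of probes above each bin. The low stretches lie at 300 to 600 kb on 2L and at 0 to 300 kb and 700 to 800 kb on X, and the replicates of a genotype are farther apart than the genotypes in most enriched bins.

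The level between blocks also differed with distance. Over probes outside blocks, the innermost 2L bin had sample medians of 0.51 and 0.68 in wild type and 0.57 and 0.77 in mutant. The next bin had 0.33 and 0.50 in wild type and 0.51 and 0.82 in mutant, and the bin 200 to 300 kb had 0.0085 and 0.04 in wild type and 0.08 and 0.04 in mutant. Between 300 and 600 kb the wild type medians lay at -0.35 to -0.18. Among 2L bins with at least 20 probes the innermost 200 kb thus had the highest medians outside blocks in both genotypes. The bin 600 to 700 kb came next in wild type, with 0.17 and 0.32, and had 0.04 and 0.10 in mutant. On X the innermost 3 bins were low between blocks as well, with medians of -0.45 to -0.21 in wild type and -0.38 to -0.18 in mutant.

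By 100 kb bin the genotypes seldom separated. Among the 9 bins of each arm with at least 20 probes, 3 on 2L were higher and 2 lower in the mutant in both replicates and 4 went opposite ways, and on X 3 were higher, 4 lower and 2 opposite. No 2L bin and 1 X bin, that at 100 to 200 kb, had genotypes that did not overlap. Over all 441 bins of these arms with at least 20 probes, the mutant was higher in both replicates in 49% and lower in 25.2%, and the genotypes did not overlap with the mutant higher in 9.98% and lower in 0.68%. In that X bin the wild type means were -0.38 and -0.35 and the mutant means -0.31 and -0.27. The largest bin increase on 2L was 0.10 and 0.27 at 100 to 200 kb and the largest decrease -0.16 and -0.18 at 600 to 700 kb. Their mean changes, 0.19 and -0.17, lay inside but near the ends of the range over the rest of 2L. That range ran from -0.20 to 0.21 over 213 bins, with a median of 0.03.

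At finer scale the genome was cut into 57266 windows of 2 kb with at least 3 probes, 335 of them in the 2L interval and 343 in the X interval, and each was tested with limma. No window of either interval passed an adjusted p of 0.05 (Benjamini-Hochberg over all windows), where 0.353% of all windows passed as increased and 0.173% as decreased. The lowest adjusted p was 0.192 on 2L and 0.162 on X. At an unadjusted limma p below 0.05 there were 10 increased and 6 decreased windows on 2L and 6 and 6 on X, against backgrounds of 3.74% and 2.07%.

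With the replicate, and thus the scan day, as a block in limma, calls appeared in both intervals. On 2L 14 windows were increased and 13 decreased, and on X 6 were increased and 16 decreased. As shares these were 4.18% and 3.88% of the 2L windows and 1.75% and 4.66% of the X windows, against 5.4% of increased and 3.73% of decreased windows in the whole genome, 9.13% in all. The share of decreased X windows was thus somewhat above the genome's, but close to the 4.25% of the rest of X. The other 3 shares were near or below the genome's. The rest of 2L had 3.55% increased and 2.93% decreased windows, and the rest of X had 3.59% increased. This fit has 1 residual degree of freedom against 2 without the block, and in both fits the spread of a window was taken wholly from its trend with level over all windows. Counts without a model gave the same picture: wild type and mutant did not overlap, with the mutant higher, in 38 2L windows (11.3%) and 36 X windows against 15.9% of windows in the genome, and with the mutant lower in 11.6% and 12.2% against 11.7%. Under the same blocked fit proximal 2R had 74 increased and 0 decreased of 176 windows, proximal 3L 34 and 6 of 312, and proximal 3R 15 and 32 of 461. Without the block 7 increased windows were called at proximal 2R, 4 at 3L and 1 at 3R, with 1 decreased at 3R and none at the other two.

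The blocked calls were not spread evenly on 2L. The bin 100 to 200 kb held 9 of the 14 increased windows and no decreased one. The bin 200 to 300 kb held 5 decreased windows and no increased one, as did the bin 600 to 700 kb. The calls thus differed in direction between the bins on either side of 200 kb, a bin limit noticed after the values were seen. Without the replicate as a block none of these windows was called. The enriched blocks between 100 and 200 kb also went both ways, with mean changes from -0.27 to 0.37. On X, 7 of the 16 decreased windows lay in the bin 300 to 400 kb.

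**Figure D3:**
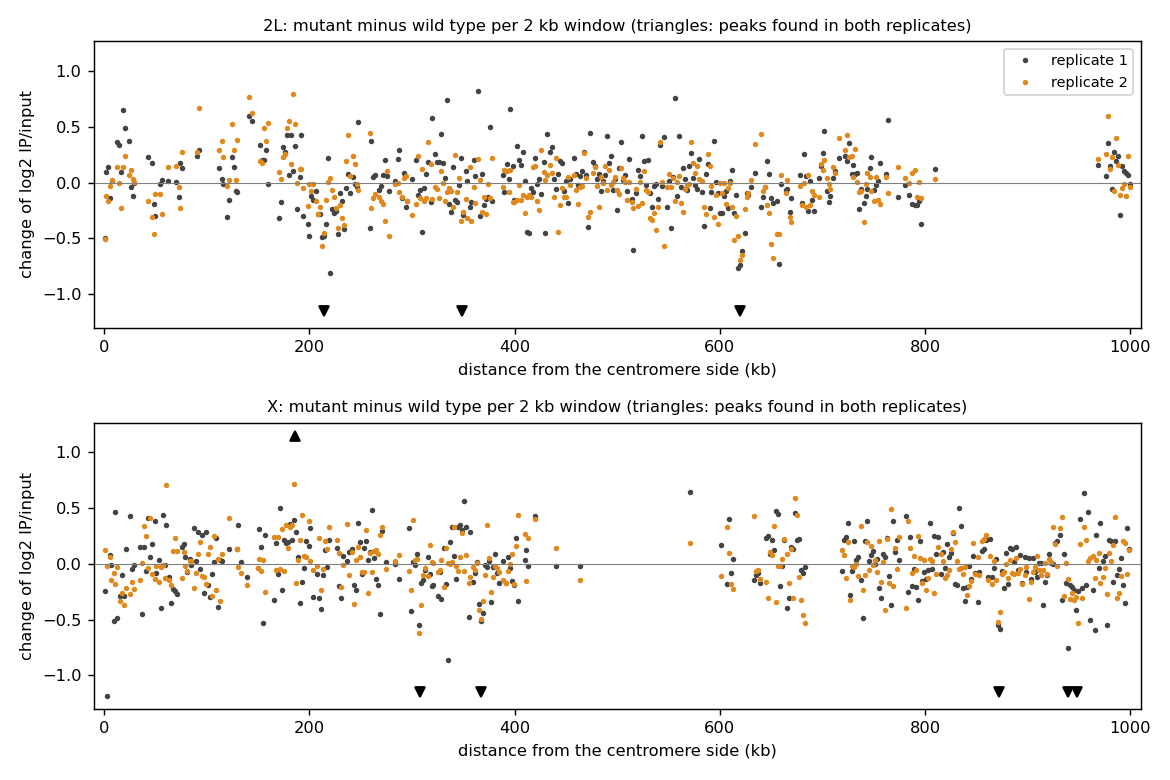
Change of log2 IP/input, mutant minus wild type (vertical axis), of each 2 kb window by distance from the centromere side in kb (horizontal axis) on 2L and X, in replicate 1 (grey) and replicate 2 (orange). Triangles mark the peaks found in both replicates, upward for increased and downward for decreased. Most windows scatter around 0, and on 2L several windows between 100 and 200 kb lie above 0 in both replicates and those near 620 kb below it.

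The windows with the highest wild type level stood at about 6 on the log2 scale on both arms. On 2L chr2L:21666001-21668000 had 5.89 and 6.51 in wild type and 5.74 and 6.44 in mutant, chr2L:22154001-22156000 had 5.70 and 6.34 against 5.58 and 6.27, and chr2L:22110001-22112000 had 5.59 and 6.24 against 5.55 and 6.22. On X chrX:21436001-21438000 had 5.64 and 6.40 against 5.69 and 6.18, chrX:21136001-21138000 had 5.59 and 6.33 against 5.60 and 6.24, and chrX:21166001-21168000 had 5.61 and 6.32 against 5.75 and 6.35. In all 6 the genotypes overlapped, and none passed limma with or without the block.

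Among 2L windows of at least 5 probes the largest increase was at chr2L:22212001-22214000, 144 kb from the centromere side. It rose from 0.78 and 1.09 in wild type to 1.33 and 1.72 in mutant without overlap, a change of 0.59 ± 0.14 (SE) with an adjusted p of 0.000935 in limma with the block and 0.685 without it. Its change was 1.19 with normexp, where it was called without the block, and 0.23 with loess. The window chr2L:22178001-22180000, 178 kb from that side, went from -0.06 and -0.01 to 0.37 and 0.48, a change of 0.46, also without overlap (limma adjusted p = 0.0216 with the block and 0.644 without), and of 0.25 in the deposited log2 values. The third, chr2L:21378001-21380000, lay at the far limit, had -0.07 and 0.76 in wild type and 0.29 and 1.35 in mutant, and overlapped between genotypes. In wild type only 27.8% of its IP spots were well above background, and its change of 0.48 was -0.06 without mutant replicate 2 and 0.08 with normexp.

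The largest decreases on 2L formed a single stretch of 3 neighbouring windows at about 620 kb. The middle one, chr2L:21736001-21738000, had 1.02 and 1.16 in wild type and 0.28 and 0.47 in mutant, a change of -0.72 ± 0.15 (SE) with an adjusted p of 3.85e-05 in limma with the block and 0.192 without it. Its neighbours chr2L:21734001-21736000 and chr2L:21738001-21740000 changed by -0.63 and -0.62, with limma adjusted p of 0.000153 and 0.000434 with the block and 0.704 and 0.562 without. None of the 3 windows had a probe of differing input, and in all 3 the genotypes did not overlap. With normexp the changes were 0.25 at chr2L:21734001-21736000, the opposite direction, -0.27 at chr2L:21736001-21738000 and -0.12 at chr2L:21738001-21740000. With loess the change at chr2L:21734001-21736000 was -0.0024, while that at chr2L:21736001-21738000 was -0.78 and that at chr2L:21738001-21740000 -0.53.

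On X the 2 largest increases coincided with a difference in the input DNA. The window chrX:21864001-21866000 had -0.40 and -0.60 in wild type and -0.0019 and 0.12 in mutant, while its mean input, mutant minus wild type, was -0.76 and -0.83 on the log2 scale. The window chrX:21376001-21378000 had -0.37 and -0.51 in wild type and 0.08 and 0.08 in mutant, with a mean input difference of -0.55 and -0.58. Each held 1 probe that met the criterion for differing input, and without it their changes of 0.55 and 0.52 became 0.13 and 0.08 and were no longer called by limma with the block (adjusted p = 0.714 and 0.864). The third, chrX:21094001-21096000, had -0.63 and -0.43 against 0.0085 and -0.10 with like inputs, but only 33.3% of its wild type IP spots were well above background and normexp gave a change of -0.10.

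The largest decreases on X lay in or beside strong blocks. The window chrX:21742001-21744000 had 3.69 and 3.95 in wild type and 3.14 and 3.33 in mutant, a change of -0.58 ± 0.09 (SE) with a limma adjusted p of 5.35e-08 with the block. Without the block it was not called, and without its 1 probe of differing input the change was -0.41, and with loess -0.25. At chrX:21176001-21178000 and chrX:21178001-21180000, which adjoin, the levels were 3.39 and 3.55 against 2.80 and 3.13 and 1.09 and 1.33 against 0.55 and 0.81. These changes of -0.50 and -0.53 had limma adjusted p of 3.44e-05 and 0.00448 with the block, and 0.717 or more without it. With loess the first was -0.32, and with normexp the second was -0.36.

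**Figure D4:**
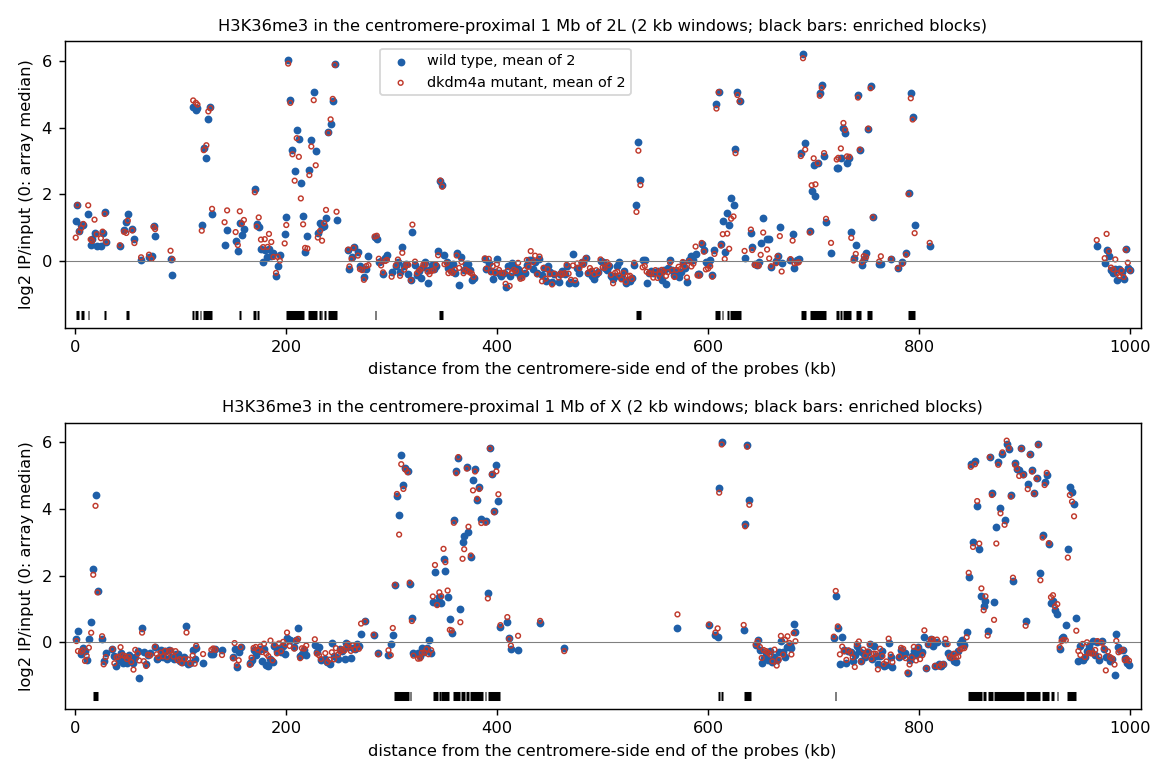
Mean log2 IP/input (vertical axis, 0 is the array median) of 2 kb windows by distance from the centromere side in kb (horizontal axis) in the proximal 1 Mb of 2L and X, filled blue for the mean of 2 wild type samples and open red for the mean of 2 mutant samples. Black bars mark the 33 enriched blocks of 2L and the 25 of X. The genotypes trace the same clusters of high windows, and regions without points are stretches with fewer than 3 probes in a window.

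The study's procedure for peaks of increased H3K36me3 smooths the mutant over wild type track over 5 probes. It takes runs of at least 3 probes at 1 SD above the mean of the positive probes and keeps runs that reach 2 SD. The paper retained increased peaks only, and the same rule was applied here to decreases as well. The number of increased peaks found here differs from the paper's. Peaks overlapping in both replicates numbered 707 increased and 734 decreased in the genome, and held part of 2.9% and 2.76% of all windows, the increased ones after a filter that asks for more positive than negative probes in the mutant (3.37% before it). Proximal 2L had 0 increased and 3 decreased peaks, in 0% and 2.69% of its windows, and proximal X had 1 increased and 5 decreased peaks, in 0.583% and 3.21% of its windows. The share of windows in decreased peaks was thus close to the genome's, and the share in increased peaks was below it. Over the rest of 2L the shares were 1.90% increased, before the filter, and 2.58% decreased, and over the rest of X 2.09% and 2.16%. In the same way proximal 2R had 17.6% and 0%, proximal 3L 6.73% and 1.28%, and proximal 3R 0.651% and 4.56%. A low share in increased peaks was thus also seen at proximal 3R.

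The 3 decreased peaks of 2L differed in length. The longest, chr2L:21733633-21740666, held 26 probes, which averaged 1.33 and 1.51 in wild type and 0.63 and 0.92 in mutant, a change of -0.70 and -0.59. The peak chr2L:22006760-22008813 went from 0.98 and 1.06 to 0.46 and 0.61, at the inner edge of the 183 kb stretch without blocks. The peak chr2L:22141148-22143722 went from 1.98 and 2.20 to 1.44 and 1.70 and lay in the longest block of the interval.

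On X the 5 decreased peaks had 7 to 14 probes each. The peak with the highest level, chrX:21741079-21743131, had 5.09 and 5.74 in wild type and 4.78 and 5.07 in mutant, a change of -0.31 and -0.67. The peak chrX:21681284-21684593 had 2.68 and 2.79 against 2.06 and 2.32, with an input that differed by -0.40 and -0.27 between the lines, and the peak chrX:21176272-21179069 had 2.44 and 2.49 against 1.68 and 2.00. The remaining pair lay at either end of 1 block, chrX:21100476-21102900 with changes of -0.27 and -0.50 and chrX:21109641-21110993 with changes of -0.84 and -0.25. The only increased peak, chrX:21863609-21864559, had 5 probes with -0.34 and -0.43 in wild type and 0.31 and 0.51 in mutant. The mean input over these probes, mutant minus wild type, was -1.37 and -1.46. The window chrX:21864001-21866000, which this peak overlaps, held only 1 probe of differing input. The increased peak was absent once probes of differing input were removed.

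All 8 decreased peaks of the intervals overlapped an enriched block by at least 1 bp, and the increased peak did not. The overlap was 4.43% of the length of chrX:21109641-21110993, 32.2% of chr2L:22006760-22008813 and 54.6% of chr2L:21733633-21740666. For the other decreased peaks it was 65.4% to 100%. The peaks were few and depended on the peak rule and normalization, so this overlap is not read as a trait of the intervals. Over the rest of 2L 31.8% of 132 decreased peaks overlapped a block, and over the rest of X 51.0% of 96. Of the increased peaks over the rest of the arms, 89.9% of 69 on 2L and 76.6% of 77 on X did. The filter on the mutant data was made for increased peaks only, and blocks are themselves defined by a high level. The shares of increased and decreased peaks are therefore not set against each other.

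The longest 2L blocks changed in different directions within the replicates. On 2L the block chr2L:22140142-22156650, of 16.5 kb and 69 probes, had 3.32 and 3.87 in wild type and 3.03 and 3.63 in mutant, a change of -0.29 and -0.24 in replicates 1 and 2. The block chr2L:21645255-21660128, of 14.9 kb, had 2.88 and 3.50 against 2.97 and 3.57, a change of 0.08 and 0.07. The block chr2L:21725233-21735633, of 10.4 kb, had 3.06 and 3.71 against 2.82 and 3.53, a change of -0.24 and -0.18. Within a replicate 2 of the 3 blocks were thus lower and 1 higher in the mutant, while between replicates the levels of a genotype differed by more than that.

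On X the longest block, chrX:21150206-21178483, spanned 28.3 kb and 120 probes with 4.48 and 5.01 in wild type and 4.41 and 4.90 in mutant, a change of -0.06 and -0.11. The next, chrX:21733213-21747331 of 14.1 kb, had 4.08 and 4.68 against 3.99 and 4.54, a change of -0.09 and -0.14, and chrX:21135063-21148591 of 13.5 kb had 4.53 and 5.14 against 4.48 and 5.09, a change of -0.04 and -0.05. These sat in 2 clusters of blocks, at 300 to 400 kb and at 800 to 1000 kb from the centromere side.

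Across all blocks the median change was small on both arms. On 2L 12 blocks were higher and 17 lower in the mutant in both replicates, 4 went opposite ways, and the median change was -0.07, against 0.0066 over blocks on the rest of 2L. Of all 616 blocks of 2L, 40.3% were higher and 35.1% lower in both replicates. On X the counts were 6 higher, 12 lower and 7 opposite, with a median change of -0.04 against -0.05 over the rest of X, and of all 696 X blocks 29.2% were higher and 51.9% lower. The counts on X were thus near those of the whole arm. The genotypes did not overlap in 1 higher and 2 lower blocks of 2L and in 1 higher and 1 lower block of X, against 5.84% higher and 6.33% lower over all of 2L and 3.88% and 8.05% over all of X.

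Those 5 blocks, singled out after their values were seen, had levels below 3. Replicates of a genotype lay farther apart in most blocks of higher level, where a lack of overlap is harder to reach. The block chr2L:22140142-22156650, for example, changed by -0.29 and -0.24 and still overlapped. The low level of the 5 is therefore not read as a trait of changed blocks. On 2L the block chr2L:21737693-21739535, within the longest decreased peak, had 1.18 and 1.59 in wild type and 0.47 and 0.86 in mutant, and the block chr2L:22305807-22308433 had 1.21 and 1.35 against 1.00 and 1.13. The higher one, chr2L:22199465-22201764, had 1.20 and 1.32 against 1.47 and 1.79. On X chrX:21680819-21684593 had 2.80 and 2.92 against 2.24 and 2.48, and chrX:21328495-21329604 had 1.52 and 1.68 against 1.74 and 1.78.

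**Figure D5:**
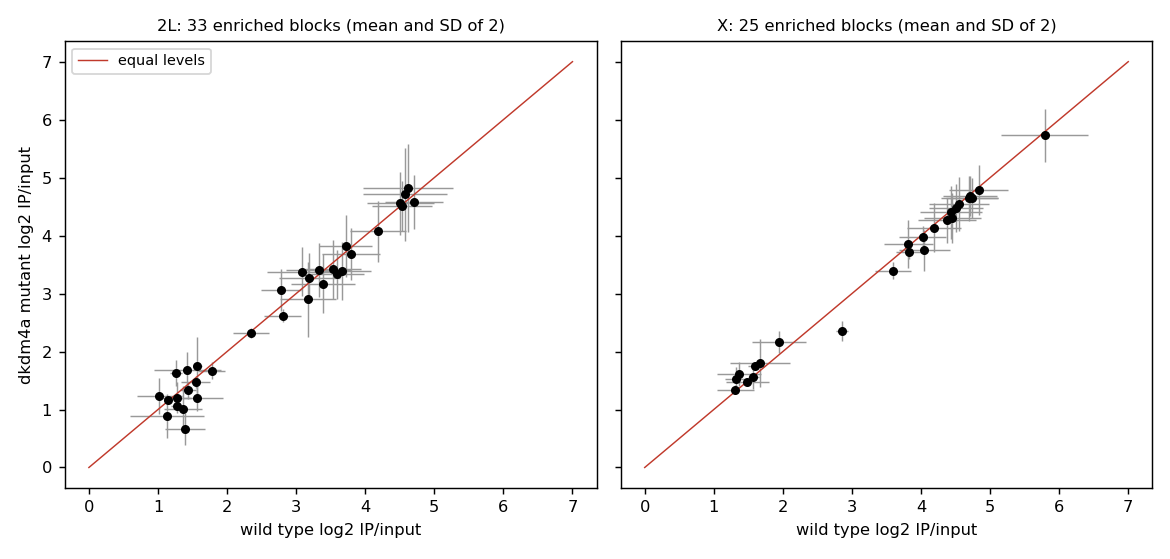
Level of each enriched block in wild type (horizontal axis) and dkdm4a mutant (vertical axis), both log2 IP/input, for the 33 blocks of proximal 2L and the 25 of proximal X. Points are means and bars SD of 2 replicates, and the red line marks equal levels. Most points lie on the line within their bars, and the X block at 2.86 in wild type and 2.36 in mutant lies below it.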

How the data were processed

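The deposited scanner files hold 1 row per spot from Feature Extraction 10.5.1.1. The intensity columns used were the processed red (IP) and green (input) signals, which per the file headers were background-subtracted and dye-normalized before deposit, and the mean and background intensity columns for the normexp alternative. The authors also deposited log2 values for the same arrays, per the labels made with limma (version and settings not given in the sources used here). These correlated with the scanner's IP over input ratio (r of 0.974 to 0.985 per array, column medians of -0.02), which gives their direction as IP over input. They served as an alternative.

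Each log2 ratio was centred on its array median, with no loess or quantile step, so a shift shared by all probes of an array is removed. Control spots were left out. Windows were fitted with limma 3.58.1 (R 4.3.3) on all 57266 windows, and single values were compared by exact permutation over samples (Python 3.11.15, scipy 1.17.1). The code of the procedures was checked on simulated data with planted effects in independent noise. That noise had no shift shared by a replicate and no spread that changed with level, so the check does not bear on accuracy in these arrays. Residuals of the same replicate number moved together across genotypes (r = 0.653 over all windows), and the scan day follows the replicate number, so the fit with the replicate as a block is given beside the fit without it. The text names the 3 highest, most increased and most decreased windows of at least 5 probes per arm, the 3 longest blocks and every peak. The intervals, lists and tests were chosen with earlier results of these data known, and the division by block was added after the blocks had been seen. Alternatives were other normalizations, centrings, filters, window, bin and interval sizes, and leaving out each sample. No genome of the files' build and no probe sequences were used.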

Additional observations from a re-analysis of the deposited data

How the results depend on the processing

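Of the comparisons, 199 values were rated unchanged under the alternatives, 16 reversed and 37 counts or ranges moved, and the causes were not tested. Unchanged meant the same direction and side of the threshold, or for counts a value within a factor of 1.5. Some of these values could not differ. The choice of centring leaves the all-probe contrasts with the rest of the same arm as they are, and the replicate block leaves the mean differences as they are. Mutant minus wild type over the interval reversed on 2L with normexp (0.19), MAD scaling (0.022), a 500 kb interval (0.0049) and within replicate 1 (0.0055), and on X with MAD scaling (0.022) and a 1.5 Mb interval (0.0047). Leaving out a sample gave -0.13 to 0.10 on 2L and -0.11 to 0.10 on X. The wild type surplus over the rest of the arm was -0.043 (2L) and -0.13 (X) with 500 kb and -0.26 (X) with 1.5 Mb. In blocks it was 0.31 on 2L with loess and -0.055 on X with 500 kb, and outside blocks -0.0027 on X with 1.5 Mb.

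Called windows, 0 on each arm, became 27 (2L) and 22 (X) with the replicate block, and 25 and 19 when probes of differing input were left out as well, a setting chosen after seeing the data. They were 2 on 2L with normexp, 1 on 2L with MAD scaling, and 1 and 2 with the deposited log2 values. Leaving out a sample gave 0 to 1 on 2L and 0 to 2 on X, the lone sample being assumed to vary like the others. The named changes reversed at chr2L:21734001 (0.25) and chrX:21094001 (-0.10) with normexp and at chr2L:21378001 without mutant replicate 2, where leaving out a sample gave -0.057 to 1.01. Peaks depended on the rule: with the mean and SD taken before smoothing there were 0 of either kind on either arm. A single replicate's track gave 6 (2L) and 5 (X) increased and 10 and 17 decreased in replicate 1, and 6 and 4 increased and 12 and 11 decreased in replicate 2. With normexp there were 0 increased on X, 0 decreased on 2L and 8 decreased on X. Loess gave 1 increased on 2L and 0 on X, MAD scaling 3 decreased on X, the deposited values 0 increased and 3 decreased on X, and removal of probes of differing input 0 increased on X. The 33 blocks of 2L became 19 at a threshold of 2 and 21 with normexp. The range of wild type bin means, 2.56 (2L) and 3.13 (X), was 3.34 and 4.34 with 50 kb bins and 1.98 and 1.86 with 200 kb bins. Permutation tests here could not pass 0.05, so their p-values do not bear on stability, and low IP signal limits the precision of windows near or below 0.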
